A study of Mus musculus with 12 samples.

Results

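Hepcidin and iron-handling transcripts were described in the livers of 12 male C57BL/6J mice. The 10 genes were chosen by symbol from the 23849 symbols of the expression table, with earlier results of these data known, and each was found on 1 line. They were Hamp, Hamp2, Bmp6, Hfe, Hfe2, Tfr2, Tfrc, Trf, Slc40a1 and Fth1. All mice were listed as 8 weeks old and were fed a high-fat diet (HFD), which in the study began before the 2 weeks of treatment. They were given either vehicle, which was drinking water, or Policaptil Gel Retard, a gel-forming fiber blend that the sample labels name Libramed, by oral gavage for 2 weeks. Livers were collected at ZT0 or ZT12, where Zeitgeber time (ZT) counts the hours since lights on, so that ZT12 is the start of the active phase of the mouse. In the study, gavage was given once a day shortly before lights off. Time of day therefore cannot be told apart from time since the last gavage. Each of the 4 groups, vehicle at ZT0, vehicle at ZT12, Policaptil Gel Retard at ZT0 and Policaptil Gel Retard at ZT12, held 3 livers. No mice on a normal diet and no other times of day were analysed here. The study asked how the tested product alters liver gene expression under HFD at these 2 times.

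Hepcidin, the product of Hamp, is the liver hormone that lowers iron in blood: it binds the iron exporter ferroportin, encoded by Slc40a1, on macrophages, gut cells and hepatocytes and leads to its degradation. Hepatocytes set Hamp transcription by BMP-SMAD signaling, which reads iron through BMP ligands from liver endothelium, the coreceptor hemojuvelin (Hfe2), HFE and transferrin receptor 2, and by STAT3 signaling, which raises it in inflammation. Inside cells, iron regulatory proteins bind hairpins called iron-responsive elements (IREs), and thereby block translation of ferritin and ferroportin mRNAs and stabilize the mRNA of transferrin receptor 1 (Tfrc) when iron is low.

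The mouse has a pair of hepcidin genes, and the part of their sequence that carries these signals is shown first. In GENCODE vM21 on GRCm38, Hamp lies at chr7:30942368-30944032 and Hamp2 at chr7:30922372-30924681, both on the minus strand and 17686 bases apart. The 250 bases before each start site, from RefSeq on GRCm38.p6, were 227 of 253 aligned columns identical (89.72%). They are printed 5′ to 3′ on the minus strand, Hamp from chr7:30944030-30944279 and Hamp2 from chr7:30924182-30924431. The Hamp2 window lies inside the gene as GENCODE places it, so its positions hold for the RefSeq start only. Capitals mark GGCGCC, the core of the BMP response element, and TTCNNNGAA, the STAT element.
Hamp: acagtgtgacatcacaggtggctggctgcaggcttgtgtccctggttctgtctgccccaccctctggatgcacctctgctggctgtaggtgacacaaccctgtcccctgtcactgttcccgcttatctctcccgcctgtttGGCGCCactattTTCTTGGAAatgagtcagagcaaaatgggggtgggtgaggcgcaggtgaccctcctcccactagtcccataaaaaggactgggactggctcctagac
Hamp2: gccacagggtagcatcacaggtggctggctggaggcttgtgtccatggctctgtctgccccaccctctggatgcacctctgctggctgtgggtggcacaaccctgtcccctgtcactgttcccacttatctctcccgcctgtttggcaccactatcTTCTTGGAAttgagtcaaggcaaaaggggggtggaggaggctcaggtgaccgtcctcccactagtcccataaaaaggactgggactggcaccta

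Hamp held GGCGCC from base −109 to −104 before its start, whereas the aligned bases of Hamp2 were GGCACC, a G4A change counted from the first base of the motif in Hamp. TTCTTGGAA stood in both, from −97 to −89 in Hamp and from −94 to −86 in Hamp2. Both motifs were searched on both strands. Of 32851 windows of the same length, 9.586% held GGCGCC and 7.02% held TTCNNNGAA. Windows were found for 7 of the 10 genes, and outside the hepcidin pair 1 window of Tfrc held GGCGCC and none held the STAT element. The E-box CACGTG, which clock factors bind, was in 6.021% of all windows and in that of Bmp6. The Bmp6 window also lies inside the gene as GENCODE places it.

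The spliced transcripts of Hamp and Hamp2, 410 and 420 bases long, were identical in 388 of 420 aligned columns (92.38%), and their coding parts in 233 of 249 (93.57%). No stretch of 100 bases was the same in both, and the longest shared run was 87 bases. Of the 311 possible 100-base reads of Hamp, 87 came within 1 mismatch of Hamp2, as did 87 of the 321 of Hamp2. Values of both genes are therefore uncertain to the extent that reads with a sequencing error were placed on the wrong copy, which cannot be read from the table.

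IREs were looked for in transcripts of 21901 protein-coding genes, as an unpaired C followed by a stem of 5 base pairs that closes a loop of CAGTGN, its last base not G. A match was found in 222 genes (1.014%), and among the genes described here in Fth1, Slc40a1 and Tfrc. They are printed below as DNA, on the strand of the transcript and with the loop in capitals, because only these 3 of the 10 genes had a match. Fth1 had 1, in its 5′ UTR at chr19:9982732-9982760 on the plus strand, and Slc40a1 had 1, in its 5′ UTR at chr1:45925465-45925493 on the minus strand. Tfrc had 4, all in its 3′ UTR on the plus strand, at chr16:32631219-32631247, chr16:32631598-32631626, chr16:32631663-32631691 and chr16:32631710-32631738 in the order printed.
Fth1: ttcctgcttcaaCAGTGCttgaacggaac
Slc40a1: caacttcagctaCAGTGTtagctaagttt
Tfrc, site 1: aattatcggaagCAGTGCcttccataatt
Tfrc, site 2: cattatcgggagCAGTGTcttccataatg
Tfrc, site 3: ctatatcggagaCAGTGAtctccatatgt
Tfrc, site 4: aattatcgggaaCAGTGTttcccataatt

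Expression was given in FPKM, sequenced fragments scaled by the authors to transcript length and library depth, which allows a rough comparison between genes. The 9806 symbols that averaged 1 FPKM or more were tested with limma on log2(FPKM + 1), and 9 of the 10 genes were among them. Bmp6, with a mean of 0.564 FPKM, was not. Absolute depth is unknown, but spacing of low values gave a relative depth from 0.724 to 1.26, lowest in replicate 2 of Policaptil Gel Retard at ZT12. All 7 hepatocyte markers were above 0 in every liver, with sums from 31877 to 47366 FPKM, although Alb, which hepatocytes make in large amounts, was listed at 0 in all. Of 11 pancreas markers, 7 were at 0 throughout and Cela1 alone exceeded 2 FPKM, at up to 75.5. Of 6 fat markers, Lep and Retn were at 0, Adipoq and Plin1 were under 0.05 FPKM, and Fabp4 and Cfd reached 15.1 and 42.8. In bulk liver, fewer cells of a type and less RNA per cell cannot be told apart.

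Because the genes were chosen with these data in view, their own values are given as a description, with no p-values. Levels spanned from Trf, the iron carrier transferrin, which ranked 10 among all symbols with a mean of 8431 FPKM, to Bmp6. Hamp ranked 24 with a mean of 3277 FPKM and Fth1, the ferritin heavy chain, ranked 35 with 2534 FPKM. These ranks hold only for the values as given, in which Alb was at 0. Tfr2 averaged 160 FPKM, whereas Tfrc, the general transferrin receptor, averaged 3.23 FPKM. The highest liver exceeded the lowest 5.83 times for Hamp and 31.2 times for Hamp2, but only 1.33 times for Hfe, 1.35 times for Trf, 1.36 times for Tfr2, 1.42 times for Fth1 and 1.46 times for Hfe2.

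**Figure D1:**
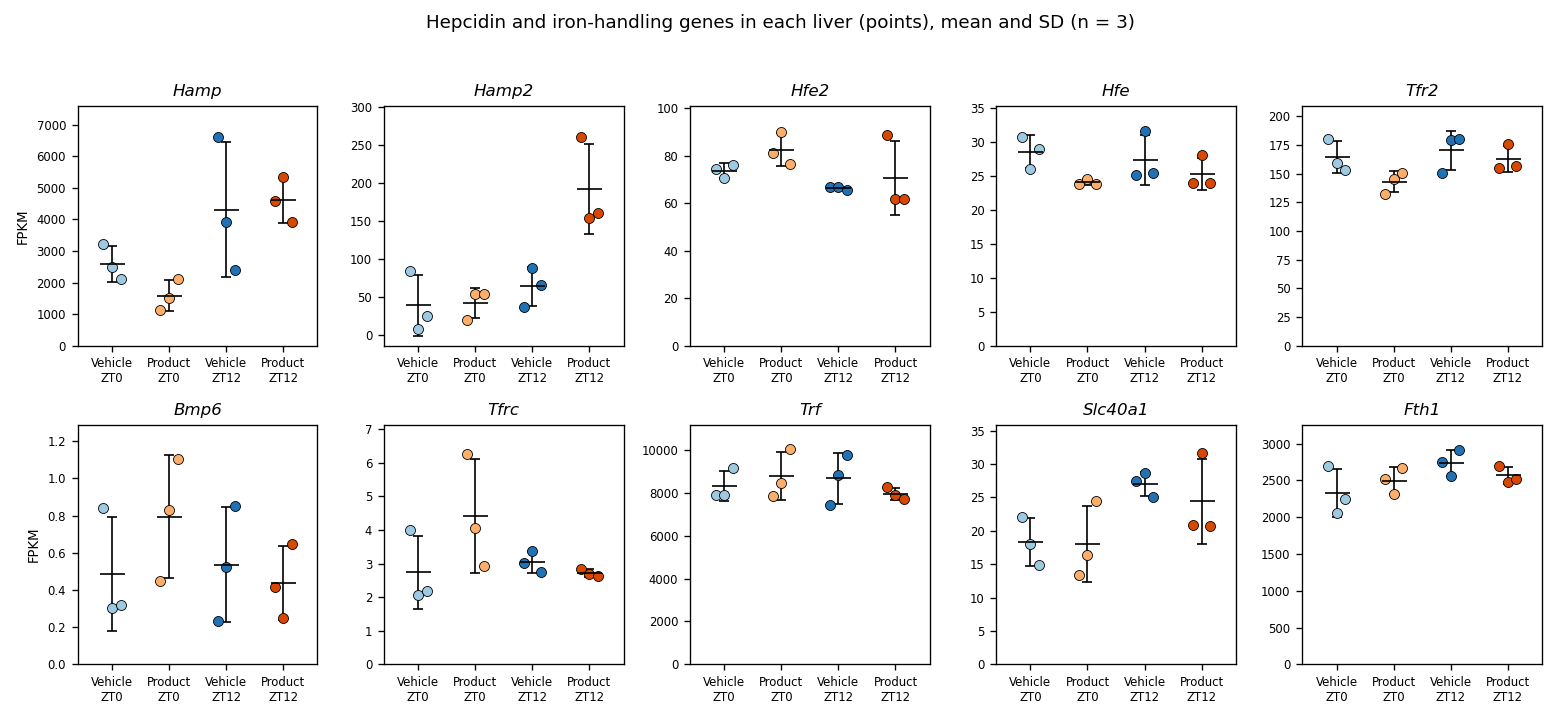
FPKM (vertical axes, linear) of the 10 genes in each liver (points) of the 4 groups, with the mean and SD of 3 livers in black; "Product" is Policaptil Gel Retard. Mean Hamp and Hamp2 were highest with Policaptil Gel Retard at ZT12, at 4608 and 192 FPKM. For Hamp, these livers overlapped the vehicle livers at ZT12, which had a mean of 4312 FPKM. Hfe, Hfe2, Tfr2, Trf and Fth1 varied less than 1.5 times over all livers.

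Hamp was at 1137, 1522 and 2104 FPKM in the 3 Policaptil Gel Retard livers at ZT0 and at 4569, 5345 and 3910 FPKM in those at ZT12. The groups did not overlap. The mean was 2.90 times higher at ZT12 (log2 fold change 1.57 ± 0.23, SE, n = 3 per group), and the log2 value was 1.35 to 1.80 when each liver was left out in turn.

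In vehicle livers, Hamp was at 3224, 2479 and 2099 FPKM at ZT0 and at 6624, 3924 and 2388 FPKM at ZT12. These groups overlapped, since replicate 3 at ZT12 lay below the upper 2 livers at ZT0. The ZT12 mean, 4312 ± 2144 FPKM (SD, n = 3), was 1.66 times the ZT0 mean, 2601 ± 572 FPKM, with a log2 fold change of 0.63 ± 0.36 (SE). It was 0.26 without replicate 1 at ZT12 and 0.99 without replicate 3, so that single vehicle livers set its size.

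Between treatments, Hamp averaged 1588 ± 487 FPKM with Policaptil Gel Retard and 2601 FPKM with vehicle at ZT0, a log2 difference of −0.73 ± 0.25 (SE). The highest treated liver and the lowest vehicle liver crossed by a narrow margin, at 2104 against 2099 FPKM. At ZT12 the means were 4608 ± 718 and 4312 FPKM, and the log2 difference of 0.21 ± 0.35 became −0.16 without vehicle replicate 3. The time effect on Hamp was 0.94 ± 0.47 (SE) larger on the log2 scale with Policaptil Gel Retard than with vehicle. In order of their means, the Hamp groups ran from Policaptil Gel Retard at ZT0 through vehicle at ZT0 and vehicle at ZT12 to Policaptil Gel Retard at ZT12, and each overlapped the next.

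Hamp2 was far lower than Hamp. It was at 261, 155 and 161 FPKM in the Policaptil Gel Retard livers at ZT12, and no other liver reached 100 FPKM. At ZT0 the treated livers were at 20.1, 54.7 and 53.8 FPKM, which gives a mean at ZT12 that is 4.48 times higher (log2 fold change 2.22 ± 0.40, SE, n = 3 per group). At ZT12 the vehicle livers were at 37.4, 88.8 and 66.6 FPKM, and the treated mean was 2.99 times theirs (log2 difference 1.61 ± 0.34). Leaving out each liver gave 1.76 to 2.46 for the first and 1.27 to 1.88 for the second of these log2 values.

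The vehicle livers at ZT0 spread most in Hamp2, at 84.8, 8.37 and 24.7 FPKM. The time effect with vehicle, 1.16 ± 0.76 (SE) on the log2 scale, was 0.39 without replicate 2 at ZT0 and 1.99 without replicate 1. For the same reason the treatment difference at ZT0, 0.55 ± 0.78, turned to −0.23 without that replicate 2. Only the step to the highest Hamp2 group, Policaptil Gel Retard at ZT12, was free of overlap with its neighbour in the order of means.

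As a share of Hamp and Hamp2 together, Hamp2 made up 0.336% to 2.56% in vehicle livers at ZT0 and 0.561% to 2.71% in those at ZT12. The share was 1.74% to 3.47% at ZT0 and 2.81% to 5.40% at ZT12 in treated livers, the latter above every vehicle liver. The liver with the highest Hamp, vehicle replicate 1 at ZT12 at 6624 FPKM, had 37.4 FPKM of Hamp2. How much of the Hamp2 value came from Hamp reads was not tested.

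**Figure D2:**
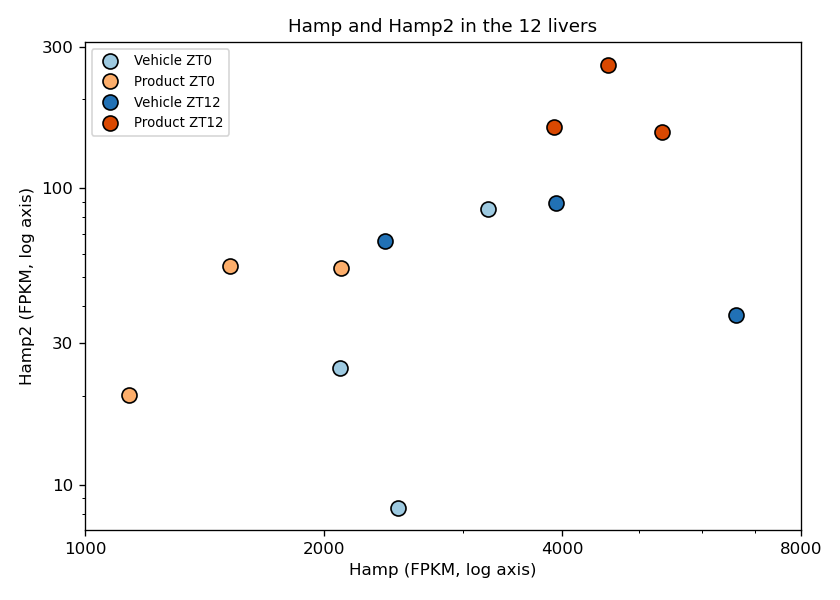
Hamp (horizontal) against Hamp2 (vertical) in FPKM, both on log axes, with 1 point per liver coloured by group. The 3 Policaptil Gel Retard livers at ZT12 lie at 155 to 261 FPKM of Hamp2, above the 88.8 FPKM that the highest of the other livers reached. Vehicle replicate 1 at ZT12 exceeds them in Hamp.

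Among the receptors and coreceptors that regulate hepcidin, log2 differences of Hfe2, Hfe and Tfr2 lay between −0.24 and 0.19 in the 4 comparisons. Hfe2, the BMP coreceptor hemojuvelin, was at 74.5, 70.4 and 76.3 FPKM in vehicle livers at ZT0 and at 67.0, 66.7 and 65.8 FPKM at ZT12. The groups did not overlap, although the log2 fold change was only −0.15 ± 0.07 (SE). With Policaptil Gel Retard, Hfe2 was at 81.1, 90.0 and 76.5 FPKM at ZT0, all above the vehicle livers by a log2 difference of 0.16 ± 0.10, which was 0.09 without treated replicate 2. At ZT12 it was at 88.8, 61.9 and 61.7 FPKM, so that replicate 1 alone stood above the vehicle livers.

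Hfe, which signals body iron together with the transferrin receptors, was at 23.9, 24.6 and 23.9 FPKM in the Policaptil Gel Retard livers at ZT0. All were below the vehicle livers of that time, which were at 30.8, 26.0 and 29.1 FPKM (log2 difference −0.23 ± 0.09, SE). At ZT12 the groups overlapped, with means of 27.5 FPKM for vehicle and 25.3 FPKM for Policaptil Gel Retard.

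Tfr2, the hepatocyte sensor of iron-loaded transferrin, showed the same order at ZT0: 132.8, 145.6 and 150.4 FPKM with Policaptil Gel Retard against 180.2, 159.8 and 153.4 FPKM with vehicle. The log2 difference was −0.20 ± 0.10 (SE), and −0.13 without vehicle replicate 1. In treated livers, Tfr2 at ZT12 was at 155.4 to 176.2 FPKM and did not overlap ZT0 (log2 fold change 0.19 ± 0.09). With vehicle the log2 fold change was 0.05 ± 0.11.

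Bmp6, the BMP ligand that rises with liver iron, was at 0.233 to 1.11 FPKM over all livers. No pair of groups was free of overlap. Group means ran from 0.438 FPKM with Policaptil Gel Retard at ZT12 to 0.794 FPKM with Policaptil Gel Retard at ZT0. Liver endothelium is the main source of Bmp6, and the 8 endothelial markers moved with time of day. Their summed level was 39.1 to 50.3 FPKM in vehicle livers at ZT0 and 19.6 to 35.6 FPKM at ZT12, against 49.4 to 59.8 and 33.1 to 35.3 FPKM with Policaptil Gel Retard, and none of the markers was at 0. Of the 8 markers, 6 were lower at ZT12 without overlap with vehicle and 5 with Policaptil Gel Retard. Their part in the values of Bmp6 was not tested.

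For iron uptake, Tfrc was at 6.26, 4.06 and 2.92 FPKM in Policaptil Gel Retard livers at ZT0 and at 2.84, 2.70 and 2.63 FPKM at ZT12. All ZT12 livers were below all ZT0 livers, with a log2 fold change of −0.49 ± 0.21 (SE), but this was −0.26 without replicate 1 at ZT0. With vehicle, Tfrc was at 3.998, 2.05 and 2.18 FPKM at ZT0 and at 3.02, 3.38 and 2.74 FPKM at ZT12. The 3.998 FPKM of vehicle replicate 1 at ZT0 makes these groups overlap, with a log2 fold change of 0.15 ± 0.20. The time effect differed by −0.64 ± 0.31 (SE) on the log2 scale between treatments. Red blood cell precursors carry much Tfrc. Alas2, their heme synthesis enzyme, was at 59.4 to 99.6 FPKM over all livers, while Slc4a1 stayed under 0.16 FPKM. The summed level of 6 red blood cell markers was 642 to 719 FPKM with Policaptil Gel Retard at ZT0, 414 to 649 FPKM at ZT12, and 327 to 796 and 257 to 478 FPKM with vehicle at these times. Their part in the Tfrc values was not tested.

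Trf, which carries iron in plasma, was at 7419 to 10029 FPKM, and no comparison separated its groups. Its group means were 8312 ± 710 and 8676 ± 1186 FPKM with vehicle at ZT0 and ZT12, and 8783 ± 1121 and 7952 ± 269 FPKM with Policaptil Gel Retard (SD, n = 3 each).

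The exporter Slc40a1 was at 22.1, 18.1 and 14.8 FPKM in vehicle livers at ZT0 and at 27.4, 28.6 and 25.1 FPKM at ZT12. The ZT12 livers were all higher, by a log2 fold change of 0.55 ± 0.14 (SE). In treated livers, Slc40a1 was at 13.4, 16.4 and 24.4 FPKM at ZT0 and at 20.8, 31.7 and 20.7 FPKM at ZT12, which overlap (log2 fold change 0.43 ± 0.24). At a given time the treatments differed little, by −0.04 ± 0.23 at ZT0 and −0.17 ± 0.17 at ZT12 on the log2 scale. Kupffer cells, the iron-recycling macrophages of liver, also carry ferroportin. Their 9 markers, none at 0, summed to 55.2 to 64.8 FPKM with vehicle at ZT0, 28.3 to 73.9 at ZT12, and 31.5 to 51.7 and 36.1 to 53.8 with Policaptil Gel Retard. With vehicle, the mean marker sum at ZT12 was 0.786 times that at ZT0, but the ranges overlapped. Of the 9 markers, 1 was lower at ZT12 without overlap and 0 were higher. The part of these cells in the Slc40a1 values was not tested.

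Ferritin heavy chain mRNA, from Fth1, was at 2053 to 2909 FPKM. Vehicle livers were at 2695, 2053 and 2249 FPKM at ZT0 and at 2753, 2555 and 2909 FPKM at ZT12, overlapping at 1 liver (log2 fold change 0.24 ± 0.13, SE). The other 3 comparisons gave log2 values between −0.09 and 0.11. Since IREs act on translation of Fth1 and Slc40a1, these mRNA levels do not give their protein levels.

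**Figure D3:**
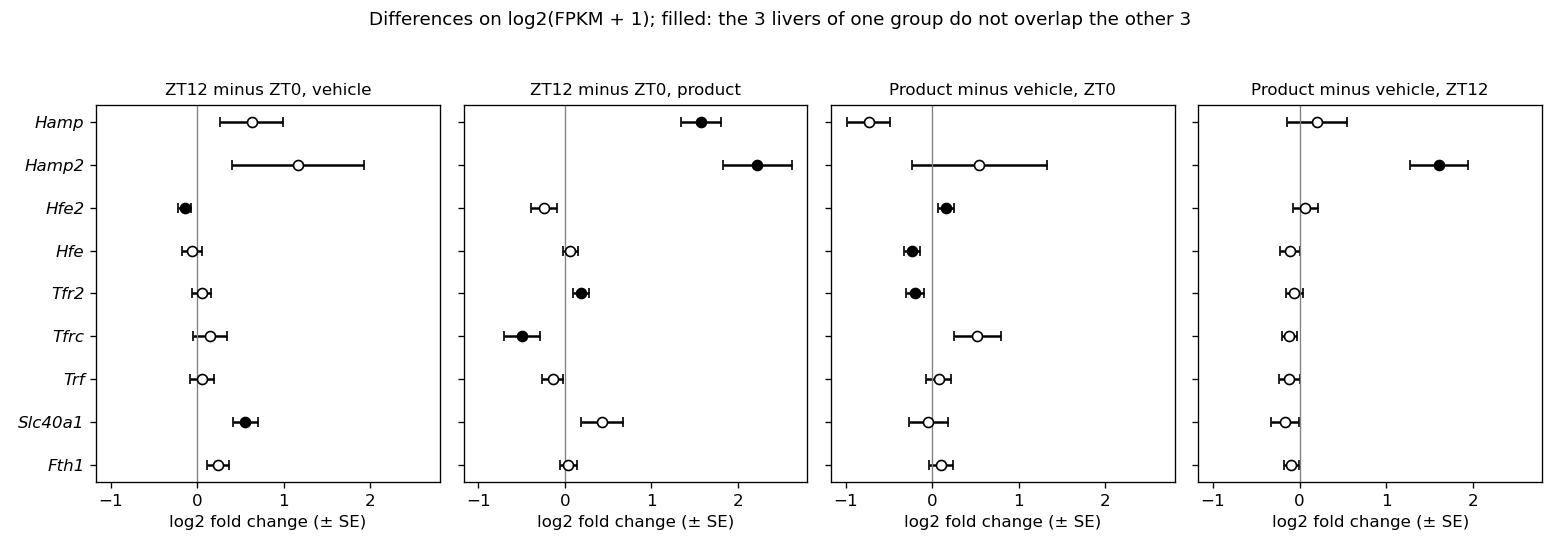
Log2 fold change (horizontal, on log2(FPKM + 1)) with its SE for the 9 genes that passed the minimum level, in the 4 comparisons of 3 with 3 livers; filled points have groups that do not overlap. Hamp and Hamp2 lie farthest from 0 for time of day with Policaptil Gel Retard, at 1.57 and 2.22.

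Counted over the 9 genes, groups did not overlap for 2 between times with vehicle, Slc40a1 higher and Hfe2 lower at ZT12. For comparison, 33.2% of all 9806 symbols did not overlap there. The count was 4 with Policaptil Gel Retard, namely Hamp, Hamp2 and Tfr2 higher and Tfrc lower, beside 34.9% of all symbols. Between treatments it was 3 at ZT0 (Hfe2 higher, Hfe and Tfr2 lower) and 1 at ZT12 (Hamp2 higher), beside 15.1% and 13.1% of all symbols. Nothing is read from these counts, since the choice of genes used the same values. The 2 time comparisons share no livers, but each group enters 1 time and 1 treatment comparison.

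The other genes of iron metabolism were followed as 7 lists with 81 entries, members not counted, of which 80 symbols were in the table and 67 were tested. Between ZT12 and ZT0, 6 of the 67 passed an adjusted p under 0.05 with vehicle (4 higher, 2 lower) and 11 with Policaptil Gel Retard (7 higher, 4 lower), in limma with Benjamini-Hochberg adjustment over all 9806 symbols. Over all symbols the shares were 10.4% and 12.4%, and at an unadjusted p under 0.05 they were 27.4% and 29.2%, against 15 and 20 of the 67. The median log2 fold change of the 67 was 0.07 for vehicle and 0.08 for Policaptil Gel Retard livers, beside 0.01 and 0.01 over all symbols, and by list it ran from −0.01 to 0.14 and from −0.20 to 0.23. Leaving out each liver in turn changed the 6 to between 0 and 5 and the 11 to between 5 and 8. P-values rest on 3 livers per group.

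Among inflammatory and hepatocyte inputs to hepcidin, with 8 genes tested, Il6ra was called in both treatments and Hnf4a in 1. Il6ra, the interleukin-6 receptor upstream of STAT3, was at 3.44, 6.65 and 5.16 FPKM in vehicle livers at ZT0 and at 8.80, 10.6 and 16.6 FPKM at ZT12. It rose by 1.09 ± 0.27 (SE) on the log2 scale (limma adjusted p = 0.0489). In treated livers it rose by 1.35 ± 0.21 (limma adjusted p = 0.0101), from 3.34 to 5.23 FPKM at ZT0 to 9.14 to 16.0 FPKM at ZT12. Hnf4a, a master regulator of hepatocyte genes, rose by 0.37 ± 0.07 with Policaptil Gel Retard (limma adjusted p = 0.0221) and had a log2 fold change of 0.24 ± 0.11 with vehicle (adjusted p = 0.227). When each of the 6 livers was left out in turn, the Il6ra call held in 1 fit with vehicle and in 6 with Policaptil Gel Retard, and the Hnf4a call in 1.

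Of 18 BMP-SMAD genes tested, 2 had an unadjusted p under 0.05 in limma with vehicle and 4 with Policaptil Gel Retard. All of these were lower at ZT12. After adjustment, none passed with vehicle and 1 passed with Policaptil Gel Retard. It was Bmp2, a BMP ligand of liver endothelium, which fell by 0.46 on the log2 scale (SE 0.12, limma adjusted p = 0.0459), a call that held in 0 of the 6 fits with a liver left out. With vehicle its log2 fold change was −0.40 ± 0.10 (adjusted p = 0.057). The endothelial markers given above were lower at ZT12 as well, and their part in Bmp2 was not tested.

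Iron and heme uptake, with 14 genes tested, had 1 call with vehicle and 4 with Policaptil Gel Retard. Scara5, a receptor for ferritin, was at 1.06, 1.70 and 0.275 FPKM in Policaptil Gel Retard livers at ZT0 and at 6.50, 8.83 and 9.48 FPKM at ZT12, a rise of 2.26 ± 0.27 (SE) on the log2 scale (limma adjusted p = 0.0044). In vehicle livers it was at 1.91, 7.58 and 6.23 FPKM at ZT0 and at 7.74, 5.71 and 4.58 FPKM at ZT12, with no separation (log2 fold change 0.29 ± 0.40). The difference of these time effects was 1.97 ± 0.53 on the log2 scale and missed the threshold (limma adjusted p = 0.519).

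The importers of iron not bound to transferrin moved in both directions. Slc39a14 (ZIP14), the main one of hepatocytes, rose by 0.48 ± 0.08 (SE) with Policaptil Gel Retard (limma adjusted p = 0.0136) and had 0.20 ± 0.11 with vehicle (adjusted p = 0.268), on the log2 scale. Slc39a8 (ZIP8) fell by 0.63 with Policaptil Gel Retard (adjusted p = 0.00803), against −0.42 ± 0.14 with vehicle (adjusted p = 0.118). Slc11a2 (DMT1) fell in both, by 0.46 with vehicle (adjusted p = 0.0308) and by 0.53 with Policaptil Gel Retard (adjusted p = 0.0419). With a liver left out, however, the Slc11a2 calls held in 0 of 6 fits with vehicle and in 1 of 6 with Policaptil Gel Retard, against 5 of 6 for Slc39a14 and 6 of 6 for Slc39a8 and Scara5.

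In the list of ferritin storage, chaperones and release, with 6 tested, Hmox1 fell with vehicle. This heme oxygenase, which frees iron from heme, was at 11.2, 8.76 and 9.58 FPKM in vehicle livers at ZT0 and at 4.99, 6.14 and 4.61 FPKM at ZT12 (log2 fold change −0.80 ± 0.13, SE, limma adjusted p = 0.0141). With Policaptil Gel Retard it was at 7.12, 6.73 and 4.29 FPKM at ZT0 and at 7.08, 6.08 and 6.03 FPKM at ZT12, without separation. The vehicle call held in 4 of 6 fits with a liver left out. The time effects differed by 0.89 ± 0.22, short of the threshold (limma adjusted p = 0.519).

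Of the 7 genes listed under cytosolic iron sensing, Aco1, which encodes iron regulatory protein 1, rose in both treatments. The log2 fold changes were 0.48 ± 0.08 (SE) with vehicle (limma adjusted p = 0.0181) and 0.39 ± 0.08 with Policaptil Gel Retard (adjusted p = 0.0213), and the calls held in 3 and 2 of 6 fits with a liver left out. It was at 53.3 to 59.6 and 55.2 to 60.8 FPKM at ZT0 and at 75.3 to 83.1 and 73.8 to 79.6 FPKM at ZT12.

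Among 13 mitochondrial iron and iron-sulfur genes, Glrx5 and Slc25a37 rose in both treatments. Glrx5, a glutaredoxin that passes on iron-sulfur clusters, rose by 0.62 ± 0.15 (SE) with vehicle (limma adjusted p = 0.0462) and by 0.74 ± 0.08 with Policaptil Gel Retard (adjusted p = 0.00361) on the log2 scale. Slc25a37 (mitoferrin 1), which imports iron into mitochondria, rose by 0.55 ± 0.11 (adjusted p = 0.0276) and 0.57 ± 0.10 (adjusted p = 0.0159). With a liver left out, the Glrx5 call held in 1 of 6 fits with vehicle and 6 of 6 with Policaptil Gel Retard, and the Slc25a37 call in 2 of 6 with each. For iron oxidation and export, Cp (ceruloplasmin), the only 1 of 5 genes tested, was at 186 to 249 FPKM and passed in no comparison. At ZT12 it was at 187 to 203 FPKM with Policaptil Gel Retard and at 220 to 241 FPKM with vehicle, without overlap. The log2 difference was −0.25 ± 0.07 (SE, limma adjusted p = 0.729).

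**Figure D4:**
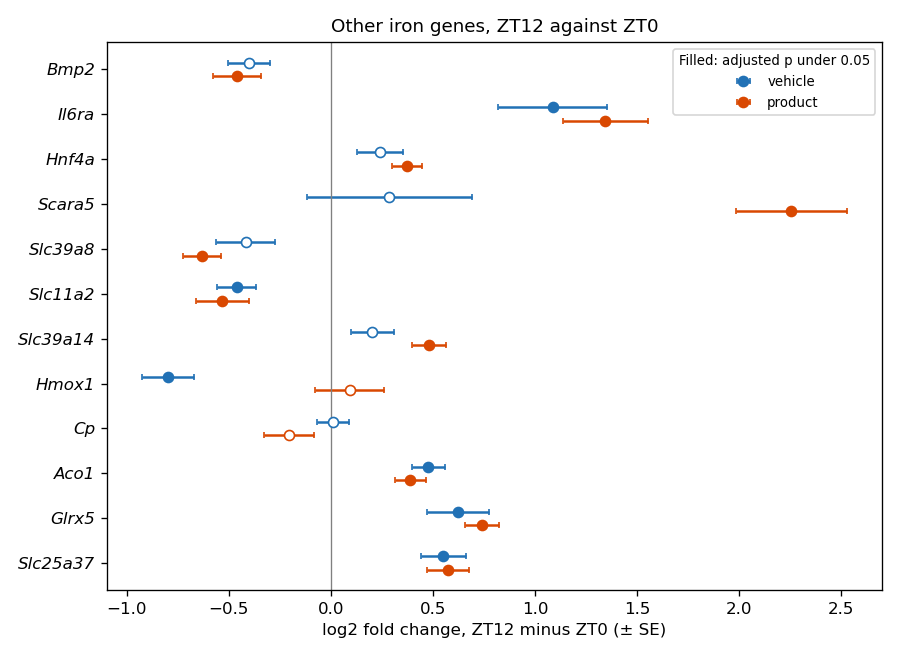
Log2 fold change from ZT0 to ZT12 (horizontal, on log2(FPKM + 1)) with its SE for 12 iron genes that are not among the 10 described, with vehicle (blue) and Policaptil Gel Retard (orange); filled points have an adjusted p under 0.05. Aco1, Glrx5, Slc25a37, Il6ra and Slc11a2 are filled in both colours, and Scara5 lies at 2.26 with Policaptil Gel Retard against 0.29 with vehicle.

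No listed iron gene passed for treatment in limma. At ZT0, 0 of 67 had an adjusted p under 0.05 and 12 had an unadjusted p under 0.05 (2 higher, 10 lower with Policaptil Gel Retard), beside 0% and 9.23% of all symbols. At ZT12 the counts were 0 and 4, beside 0% and 6.74%, and for the interaction of time and treatment 0 and 5, beside 0% and 6.63%. The median log2 difference of the 67 was −0.04 at ZT0 and −0.06 at ZT12, beside −0.02 and −0.01 over all symbols.

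The 5 uptake genes that were lower with Policaptil Gel Retard at ZT0 at an unadjusted p under 0.05 were Lcn2, Hpx, Scara5, Slc39a14 and Steap4, named after their values were seen. Lcn2, which binds bacterial iron carriers and is induced in inflammation, was at 9.20, 58.8 and 11.2 FPKM with Policaptil Gel Retard and at 300.1, 304 and 142 FPKM with vehicle (log2 difference −3.59 ± 0.67, SE, limma adjusted p = 0.295). Hpx, the heme carrier hemopexin, averaged 4137 ± 547 FPKM with Policaptil Gel Retard and 6761 ± 494 FPKM with vehicle (SD, n = 3), and Slc39a14 averaged 31.6 ± 1.1 and 42.0 ± 2.8 FPKM. None of these groups overlapped.

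Acute-phase transcripts varied widely between livers, and 4 were set beside Hamp after their values were seen. Saa1, a serum amyloid gene whose reads may be shared with Saa2, was at 139.8 to 593 FPKM in Policaptil Gel Retard livers at ZT0 and at 3252 to 9291 FPKM in vehicle livers. Fgl1, a hepatocyte protein that binds BMP ligands and lowers hepcidin, was at 353 to 726 and at 919.5 to 1052 FPKM (log2 difference −0.99 ± 0.25, SE, limma adjusted p = 0.411). Hp (haptoglobin), which binds free hemoglobin, overlapped between the treatments, at 5516 to 7617 FPKM and at 7241 to 8390 FPKM. Within the treated livers at ZT0, replicate 3 had the highest Hamp, 2104 FPKM, and the lowest Saa1. Vehicle replicate 3 had nearly the same Hamp, 2099 FPKM, with 3252 FPKM of Saa1. Among vehicle livers at ZT12, replicate 1 had the highest Hamp, 6624 FPKM, with 1116 FPKM of Saa1 and 33.8 FPKM of Lcn2, while replicate 3 had the lowest Hamp, 2388 FPKM, with 9336 and 407 FPKM. Among treated livers at ZT12, by contrast, replicate 2 was highest in both, at 5345 FPKM of Hamp and 9887 FPKM of Saa1. Replicate 3 was lowest in both, at 3910 and 942 FPKM. Over the 12 livers, Hamp and Saa1 had a Pearson r of 0.46 on log2(FPKM + 1). The part of an acute-phase state in the Hamp values was not tested.

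**Figure D5:**
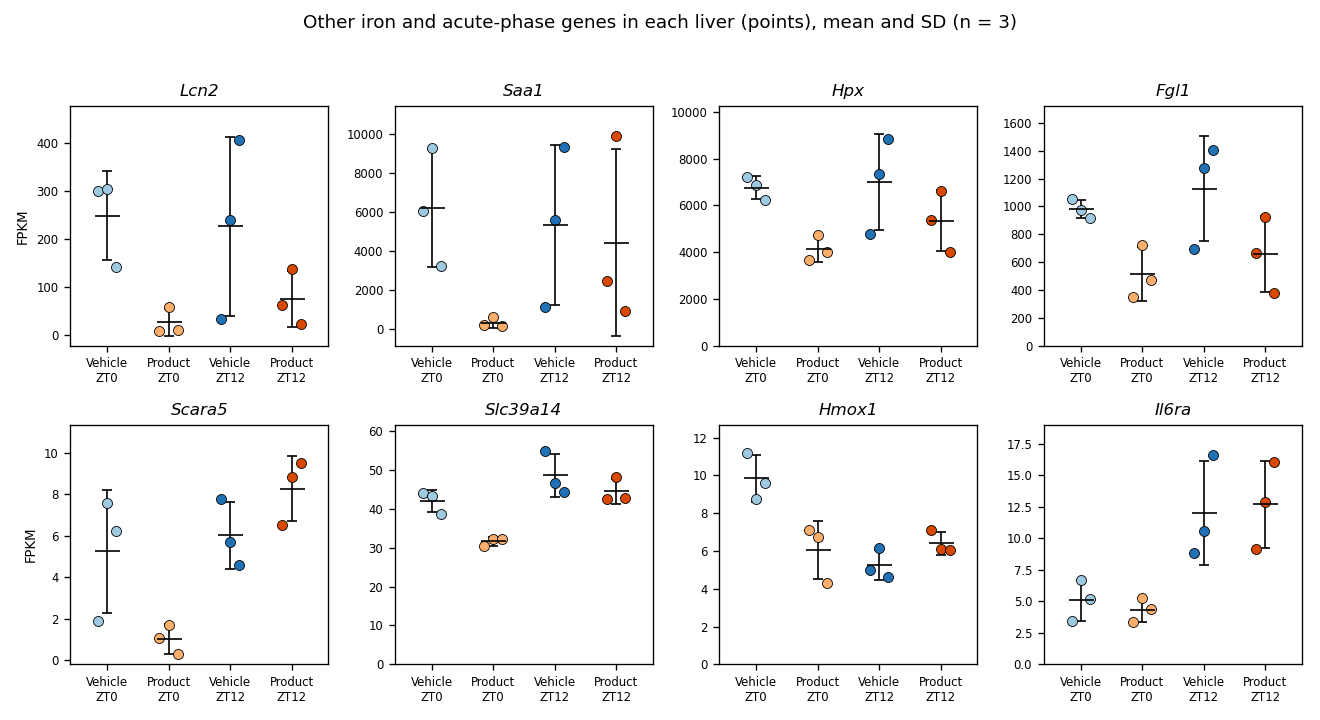
FPKM (vertical axes, linear) of 8 iron and acute-phase genes in each liver (points), with the mean and SD of 3 livers in black; "Product" is Policaptil Gel Retard. Lcn2, Saa1, Hpx, Fgl1 and Slc39a14 are lower in all 3 Policaptil Gel Retard livers than in all 3 vehicle livers at ZT0, while Il6ra is higher at ZT12 in both treatments.

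The symbols whose log2(FPKM + 1) followed Hamp most closely over the 12 livers were Spryd4 (Pearson r = 0.94), 1110059G10Rik (r = 0.94), 9030619P08Rik (r = 0.94), Fancl (r = 0.91) and Slc39a14 (r = 0.90). Hamp2 had r = 0.54 with Hamp and stood at rank 1477 of 9805. Closest to Tfrc were Tarbp2 (r = 0.86), Irgm2 (r = 0.82), Olig1 (r = 0.80), Syce2 (r = 0.80) and Ube2e3 (r = 0.80), and closest to Slc40a1 were Urad (r = 0.89), Pank2 (r = 0.89), Taf5l (r = 0.88), Zbtb11os1 (r = 0.87) and Cul7 (r = 0.87). These correlations are descriptions: the 12 livers share 4 groups and the depth of their libraries, and the names are the highest among 9805 symbols in each case.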

How the data were processed

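Liver RNA of 12 mice was sequenced, and samples were grouped by treatment and time from the labels. The authors deposited 1 table of FPKM per gene and sample. The submitters' processing notes name TopHat and Cuffnorm with mm10 (GRCm38), while the methods of the study describe another aligner and RPKM from uniquely placed reads. Of the 24138 lines in the table, 289 repeated a symbol and were dropped in favour of the line of highest mean.

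Values were analysed as log2(FPKM + 1) for symbols with a mean of at least 1 FPKM, with limma 3.58.1 in R 4.3.3 (mean-variance trend, two-sided, Benjamini-Hochberg adjustment over 9806 symbols). Each pair of groups was fitted on its 6 livers and the interaction on 12. The calculations were tested on simulated data. Motifs and transcripts were read from RefSeq and GENCODE vM21 with Python 3.11.15.

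The 10 genes and all lists were chosen with earlier results of these data known. Named list genes are up to 4 per list with adjusted p under 0.05, by size of change, or the most abundant, and 1 gene that this rule names is not reported here. Counting error is unknown, as the table holds no counts, and precision rests on the spread of 3 livers per group. Alternatives were a pseudocount of 0.1, no minimum, median-ratio scaling, a fit over all livers, a replicate block and each liver left out.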

Additional observations from a re-analysis of the deposited data

Results flagged for a closer look

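Among the iron genes listed, Bmp4 and Inhbb were flagged. In both, Policaptil Gel Retard livers lay on opposite sides of the vehicle livers at ZT0 and ZT12, without overlap at either time. Both were named after their values were seen. Over all 9806 symbols tested, 15.1% at ZT0 and 13.1% at ZT12 did not overlap between treatments. The share that did so on opposite sides was not counted, so nothing is read from the number of genes flagged. Bmp4, a BMP ligand, was at 2.10 to 2.18 FPKM with Policaptil Gel Retard and at 0.924 to 1.87 FPKM with vehicle at ZT0, and at 0.634 to 1.40 against 1.51 to 2.20 FPKM at ZT12. The treatment difference was −0.88 ± 0.25 (SE) on the log2 scale at ZT12 relative to ZT0, with a limma adjusted p of 0.519. For Inhbb, which encodes the activin B subunit, it was 0.38, but the gene never exceeded 0.342 FPKM, was below the minimum level, and its difference was not tested. With 3 livers per group, no test for a single distant liver was made.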

How the results depend on the processing

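Of 45 log2 differences of the 9 genes tested, 36 had the same sign under every alternative, and the other 9 changed sign only when 1 liver was left out. The interaction of Slc40a1 is among these 9, and overlap of groups does not apply to it. The rest of these 9 had groups that overlapped, which was fixed in advance. Leaving out 1 liver cannot reverse the sign between groups free of overlap, so an unchanged sign there says nothing about stability. The fits with no minimum FPKM and with the replicate block cannot change any of the 45 log2 differences. Their agreement therefore says nothing about stability either. Bmp6 was fitted only with no minimum FPKM. The interaction of Hfe2, −0.09, was −0.26 without Policaptil Gel Retard replicate 1 at ZT12, beside an SE of 0.18.

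Of the symbols called between times with vehicle, 1020 in all and 6 listed iron genes, there were 515 and 2 with no minimum FPKM, 279 and 0 with the replicate block, and 1539 in all with a fit over the 12 livers. With Policaptil Gel Retard, 1212 and 11 became 639 and 7 with no minimum and 709 and 6 with the block. For treatment at ZT0 the block gave 2 in place of 0. Replicate numbers are not stated to pair these livers. Same-numbered livers had correlations of their deviations from −0.28 to 0.26, which cannot settle pairing with so few livers per group. The lower counts between times with the block therefore remain a limit of these calls.

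Leaving out 1 liver gave 226 to 869 symbols and 0 to 5 listed iron genes between times with vehicle, and 535 to 1014 and 5 to 8 with Policaptil Gel Retard. For treatment it gave 0 to 7 and 0 to 1 at ZT0, 0 to 1 and 0 at ZT12, and 0 to 1 and 0 for the interaction. With vehicle, no listed gene was called without replicate 3 at ZT0 or replicate 3 at ZT12, and 1 without replicate 2 at ZT12. With Policaptil Gel Retard, Glrx5, Scara5, Slc39a8 and Il6ra passed in all 6 of these fits, while Bmp2 passed in none and Hnf4a and Slc11a2 in 1 each. The adjusted p of Bmp2 ran from 0.0196 to 0.127 over all alternatives, and with vehicle that of Slc11a2, which passed in none of the 6, ran from 0.0221 to 0.111. Fewer livers are tested in each of these fits. The spread of 3 livers and an unknown depth limit small differences.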
